A study of Mus musculus with 4 samples.

Results

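ETS factors are transcription factors that share a DNA-binding ETS domain, and 10 of them were followed here: Etv1, Etv4, Etv5, Ets1, Ets2, Elk1, Elk3, Etv6, Elf1 and Elf3. They were taken as every non-control probe on the array whose gene name was one of these symbols, which gave 17 probes of 39429 and 10 gene names of 31896. The brightest probe over the 4 arrays stood for its gene, and 6 of the 10 genes had more than 1 probe. Each array measured total RNA of tumour-derived breast cancer cells in culture, from mice whose MMTV promoter, active mainly in mammary epithelium, drives the Neu oncogene (MMTV-Neu). The cells were Pak1 -/- in 2 samples and Pak1 +/+ in the other 2, from 2 different tumors per group, so all 4 samples carry Neu and the groups differ in the label for the p21-activated kinase Pak1. All cells were grown in low calcium medium with horse serum, then kept without serum for 3 h and given EGF for 15 min. The array is a one-color (Cy3) design with 60-base probes, and no untreated sample was analysed here, so a response to EGF itself cannot be read from these values.

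ETS factors bind DNA around a GGAA core, most strongly where it stands in a longer site such as CCGGAAGT. Several are end points of the Ras and ERK pathway that runs below Neu and the EGF receptor: ERK phosphorylates Ets1, Ets2, Elk1, Elk3 and the PEA3 group (Etv1, Etv4 and Etv5), and transcription of the PEA3 genes themselves is commonly raised by ERK signaling. Elk1 and Elk3 are ternary complex factors, which sit beside the serum response factor on serum response elements. Etv6 is mainly a repressor, and Elf1 and Elf3 belong to groups found in blood cells and in epithelia, Elf3 being largely epithelial.

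Median spot intensity was 322 to 331 over a local background of 39 to 42 on the 4 arrays, and 62.2% to 70.4% of probes were well above background. Values are log2 intensities after background correction and quantile normalization. A difference is Pak1 -/- minus Pak1 +/+, and an adjusted p comes from limma over 27229 probes with a threshold of 0.05. The Pak1 probe read 12.21 and 12.25 under the Pak1 -/- label and 12.04 and 12.04 under Pak1 +/+, not lower in the former (adjusted p = 0.07), so directions below follow the labels. Erbb2, the mouse gene of the Neu receptor, was lower by 0.31 log2 (adjusted p = 0.0202). Whether its probe also reads RNA of the MMTV-driven Neu was not tested. All 4 arrays lay on 1 slide in group order, so position on the slide and genotype cannot be told apart. Epithelial markers were bright, with a summed linear level of 1332106 to 1346840 in the arrays labelled Pak1 -/- and 1163470 to 1185294 in the others, 6 of 12 higher and 1 lower (58.3% called, beside 51% of all genes). The largest rises were those of Krt17 (4.92 log2), Krt14 (2.83) and Cdh1 (1.19), the basal keratin Krt5 was higher by 0.50, and Krt7 was the lower one (-1.10). Of the markers of other cell types, 6 of 10 leukocyte, 4 of 8 endothelial and 4 of 8 fibroblast genes could be tested, and the others (Laptm5, Tyrobp, Lyz2 and Cd79a; Tek, Emcn, Tie1 and Cldn5; Col3a1, Dcn, Lum and Thy1) were well above background on at most 1 array. Well above background on all 4 arrays were the leukocyte genes Ptprc, Coro1a, Csf1r, Cd3e and Cd68, the endothelial genes Pecam1, Kdr and Esam, and the fibroblast genes Pdgfra, Col1a1 and Col1a2, while Cd52, Cdh5 and Postn were so on 2 arrays. The leukocyte sum was 6229 to 6476 against 5705 to 6399 (0 genes higher in limma, 1 at an unadjusted p under 0.05, and Ptprc and Coro1a lower) and the endothelial sum 10419 to 10771 against 9546 to 11299 (0 higher and 0 lower by brightest probe, also at an unadjusted p under 0.05, while a dimmer Kdr probe was at least 2.17-fold higher, adjusted p = 0.000463). Fibroblast markers summed to 2098 to 3318 against 1218 to 1240, with Postn (at least 10.4-fold) and Col1a1 (1.12 log2) higher. Whether the makeup of the cultures has a part in the differences below was not tested.

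Every member had at least 1 probe that was well above background on all 4 arrays, and all 17 probes were. Of the 10 members, 4 were higher in the arrays labelled Pak1 -/- (Ets1, Elf1, Ets2 and Etv6), 4 were lower (Etv1, Etv4, Etv5 and Elf3), and Elk1 and Elk3 did not pass the threshold. That is 80% of the members, beside 51% of the 22014 genes tested by their brightest probe (22.8% higher and 28.2% lower). The calls of Etv6 and Elf3 among them were not firm. Members were chosen with earlier results of these data known, so a share above that of all genes is not a test of the family. At a change of at least 2-fold the members called were 2 higher and 3 lower, or 50%, beside 12.6% of all genes (6.99% higher and 5.61% lower). Elf1 and Etv5 lie close to that limit, so this share was not firm. Without Pak1 -/- replicate 1 both fell below it (0.97 and -0.99 log2), and without Pak1 +/+ replicate 2 Elf1 did (0.98). The members moved both ways, and the median difference of the 9 measured below saturation was 0.19 log2, beside -0.055 over all genes (0.096 with the saturated Elk1 probe counted). That median had no firm sign or size: it was 0.12 without Pak1 +/+ replicate 1, 0.26 without Pak1 +/+ replicate 2, 0.27 under cyclic loess and -0.063 with the probes of each gene averaged. The median size of the difference was 1.01 log2 over the same 9 and 0.83 with the saturated Elk1 probe counted, beside 0.32 over all genes. The groups did not overlap for 9 of those 9, beside 77.6% of all genes, but they overlapped on the Elk1 probe that was not saturated. Saturated genes were not taken out of the values over all genes. The samples of a group come from different tumors, so limma judged each difference against the spread between 2 tumors on each side, moderated over all probes tested. With 2 tumors per group, a difference of genotype is not well separated from differences between tumors.

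**Figure D1:**
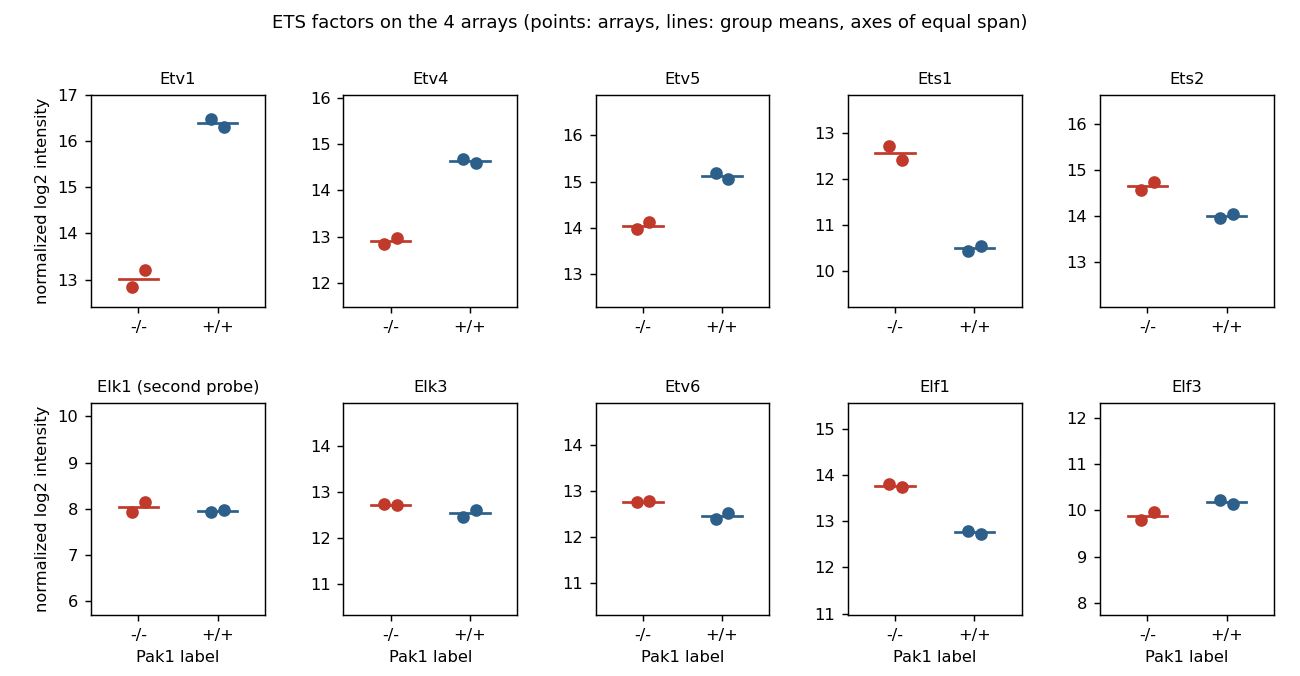
Normalized log2 intensity of each ETS factor on the 4 arrays, with 1 panel per gene and vertical axes of equal span. Points are arrays, lines are group means, red stands for Pak1 -/- and blue for Pak1 +/+, and Elk1 is shown by its second probe because its brightest one was saturated. The groups lie far apart for Etv1 (12.83 and 13.21 against 16.48 and 16.30) and Ets1 (12.71 and 12.41 against 10.44 and 10.56), and close together for Elk1, Elk3, Etv6 and Elf3.

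All 3 PEA3 genes were lower in the arrays labelled Pak1 -/-, by 10.3-fold for Etv1, 3.30-fold for Etv4 and 2.10-fold for Etv5. These activators take part in branching growth of the mammary gland and are often found at high levels in Neu-driven tumors. The first 30 of the 60 bases of the probes behind these values, and of the Ets1 probe described further on, are printed because they carry the 4 largest differences of the family; each probe is given with its mm9 position and strand, and no stretch of 20 bases in them occurs in a probe of another gene.
Etv1, chr12:39593054-39593113, + strand: tcacaggccagtagcattttatgtatctgg
Etv4, chr11:101631057-101631116, - strand: taattccacctttgcctcttatgccagacc
Etv5, chr16:22381387-22381446, - strand: tgcaccctgccgagctgcgtatattctgta
Ets1, chr9:32564860-32564919, + strand: gttggggtctatataaacctgttgaactct

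Etv1 showed the largest difference of the family. Its brightest probe (A_66_P135185) read 12.83 and 13.21 in the arrays labelled Pak1 -/- and 16.48 and 16.30 in those labelled Pak1 +/+. Both values of the first group lay more than 3 log2 below the second group, while replicates differed by less than 0.4. The means were 13.02 ± 0.27 and 16.39 ± 0.13 (SD, n = 2 each), and they differed by -3.37 (SE 0.15, 95% interval -3.77 to -2.97, adjusted p = 0.00026), larger in size than that of 99.0% of the genes tested. A second Etv1 probe (A_55_P1986321, chromosome 12, 39594622 to 39594681) was far dimmer and read 7.19, 7.44, 10.33 and 10.03 in the same order. It gave -2.87 (SE 0.14, 7.30-fold lower, adjusted p = 0.000317), so the probes had the same direction. Which of them gave the larger difference depended on the background correction: with no offset they gave -3.38 (bright) and -3.35 (dim), and with processed signals -3.37 and -3.69 after quantile normalization and -3.49 and -3.67 after scaling to the 75th percentile.

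Etv4 was lower on both of its probes, by nearly equal amounts. The brighter one (A_55_P2078780) read 12.85 and 12.98 in the arrays labelled Pak1 -/- and 14.68 and 14.59 in the others. Its means were 12.91 ± 0.089 and 14.63 ± 0.063 (SD, n = 2 each), and they differed by -1.72 (SE 0.083, adjusted p = 0.000298), larger in size than that of 95.2% of genes. The dimmer probe (A_55_P1959521, chromosome 11, 101631322 to 101631381) read 11.20, 11.52, 13.18 and 13.00, a difference of -1.73 (SE 0.14, 3.32-fold lower, adjusted p = 0.00105). The groups were separate on each probe.

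Etv5 had a single probe (A_55_P2037454), which read 13.97 and 14.13 against 15.18 and 15.06. The means of 14.05 ± 0.11 and 15.12 ± 0.087 (SD, n = 2 each) differed by -1.07 (SE 0.093, adjusted p = 0.00129), larger in size than that of 88.5% of genes. The calls of Etv1, Etv4 and Etv5 held in all 14 alternatives tried, those that left out a sample included.

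The founding members went the other way. Ets1, an activator known from blood vessels, lymphocytes and invasive tumor cells, was 4.17-fold higher in the arrays labelled Pak1 -/-. The probe that stands for it (A_52_P194250) read 12.71 and 12.41 against 10.44 and 10.56, so the lower value of the first group was well above the higher value of the second. The means were 12.56 ± 0.21 and 10.50 ± 0.084 (SD, n = 2 each), and they differed by 2.06 (SE 0.13, 95% interval 1.73 to 2.39, adjusted p = 0.00053), larger in size than that of 96.6% of genes. The other Ets1 probe (A_52_P232830, chromosome 9, 32561826 to 32561885) read 12.56, 12.21, 10.15 and 10.42, a difference of 2.10 (SE 0.16, 4.28-fold higher, adjusted p = 0.00093). Both probes thus gave the same size.

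The second Ets1 probe lies in the part of the gene that encodes the ETS domain, where the family is most alike, so its letters were searched for in the probes of every other gene. A run of 20 bases was shared with 1 probe, that of Etv2 (A_51_P137560, chr7:31418776-31418835), a factor of early blood vessel cells. Both are printed because they show how close a cross-match within the family can come, with the shared run in capitals.
Ets1 second probe: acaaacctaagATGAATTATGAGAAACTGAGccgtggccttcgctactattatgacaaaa
Etv2 probe: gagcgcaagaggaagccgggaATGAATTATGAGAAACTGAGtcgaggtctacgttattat

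The Etv2 probe had a spot intensity of 74.68, 126, 93.48 and 91.87 before normalization and was well above background on 1 array. The Ets1 probe that holds the same run read 5766, 4904, 1150 and 1310 on that scale. The brighter Ets1 probe shares no such run with any other gene and differed by a similar amount.

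Ets2, the close relative of Ets1, was higher by a smaller amount. It read 14.56 and 14.74 in the arrays labelled Pak1 -/- and 13.96 and 14.05 in the others (A_52_P658122, chromosome 16, 95942227 to 95942286). The groups did not overlap, and the means of 14.65 ± 0.13 and 14.00 ± 0.068 (SD, n = 2 each) differed by 0.65 (SE 0.096, 1.56-fold, adjusted p = 0.00568). The calls of Ets1 and Ets2 held in all 14 alternatives.

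Elf1, which acts in blood cells and is also widely expressed, was 2.02-fold higher by its brightest probe (A_55_P1989405, chromosome 14, 79981995 to 79982054). It read 13.81 and 13.73 against 12.79 and 12.73, with replicates within 0.1 log2 of each other. The means of 13.77 ± 0.057 and 12.76 ± 0.04 (SD, n = 2 each) differed by 1.01 (SE 0.074, adjusted p = 0.000825), and this call held in all 14 alternatives. A dimmer probe at 79973368 to 79973425 read 10.93, 10.78, 10.45 and 10.14, a difference of 0.56 (SE 0.13, adjusted p = 0.0225). That second call was lost without Pak1 -/- replicate 1 (adjusted p = 0.11), Pak1 -/- replicate 2 (0.0628) or Pak1 +/+ replicate 2 (0.0648).

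Etv6 and Elf3 passed the threshold by small margins. Etv6 read 12.75 and 12.77 against 12.39 and 12.52 (A_55_P2230913, chromosome 6, 134216664 to 134216723), higher by 0.31 (SE 0.08, 1.24-fold, adjusted p = 0.0306). Its call held in 7 of the 14 alternatives. It was lost with no filter (adjusted p = 0.0542), with processed signals (0.0529 quantile normalized, 0.0675 scaled to the 75th percentile) and on leaving out any of the samples (adjusted p = 0.0877 and 0.0963 without Pak1 -/- replicates 1 and 2, 0.155 and 0.0574 without Pak1 +/+ replicates 1 and 2). The Etv6 probe ends in a T-rich stretch, and probes of 4 other genes, with spot intensities of 103.2 to 9160, share some 20-base run with it. Elf3 read 9.78 and 9.96 against 10.23 and 10.14 (A_51_P480241, chromosome 1, 137150328 to 137150387), lower by 0.32 (SE 0.094, 1.25-fold, adjusted p = 0.0439). Its call held in only 4 of the 14 alternatives and was lost without Pak1 -/- replicate 1 (adjusted p = 0.125), Pak1 +/+ replicate 1 (0.172) or Pak1 +/+ replicate 2 (0.0967). Differences of this size are ordinary on these arrays, since 48.3% of genes had a smaller one than Etv6 and 49.4% a smaller one than Elf3.

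The ternary complex factors gave no call by their brightest probes, for different reasons. The brightest Elk1 probe (A_55_P1954986, chromosome X, 20510521 to 20510580) was saturated on all 4 arrays, with a mean spot intensity of 561600, 563200, 564200 and 562100, so it has no usable difference. Its letters were searched in the same way. Probes of 8 other gene names share some 20-base run with it on the same strand, of which Kctd14, Med16 and F10 were saturated on all 4 arrays as well, and the 8 together spanned spot intensities of 3.317e+04 to 5.642e+05. The run found most often, in 5 other probes, is shown in capitals within 30 bases of the Elk1 probe, because it bears on whether the signal belongs to Elk1.
Elk1 brightest probe, 30 bases: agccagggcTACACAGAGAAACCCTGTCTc

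The saturated signal was not assigned to Elk1. The second Elk1 probe (A_66_P103818, chromosome X, 20512461 to 20512520) shares no 20-base run with another gene and was dim, at 7.93, 8.15, 7.93 and 7.98. Its groups overlapped, and the difference was 0.088 (SE 0.1, 95% interval -0.18 to 0.35, adjusted p = 0.505). The interval leaves room for a change of either sign up to its bounds.

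Elk3, a ternary complex factor that represses until it is phosphorylated, had 3 probes that disagreed. The brightest (A_55_P2018994, chromosome 10, 92710178 to 92710237) read 12.74, 12.72, 12.46 and 12.61, a difference of 0.19 (SE 0.082, 95% interval -0.026 to 0.41, adjusted p = 0.117). It passed the threshold under cyclic loess alone (0.27, adjusted p = 0.0497). A second probe (A_55_P1972927, chromosome 10, 92712097 to 92712156) read 12.14, 12.06, 12.43 and 12.55 and was lower by 0.39 (SE 0.083, 1.31-fold, adjusted p = 0.0162), a call lost without Pak1 -/- replicate 2 (0.0652) or Pak1 +/+ replicate 2 (0.0852). The third (A_55_P2018989, chromosome 10, 92711627 to 92711686) was dim, at 8.72, 8.81, 8.65 and 8.85, with a difference of 0.014 (SE 0.097, adjusted p = 0.917). The sign of an Elk3 difference thus depends on the probe, and no level of the gene as a whole can be given.

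**Figure D2:**
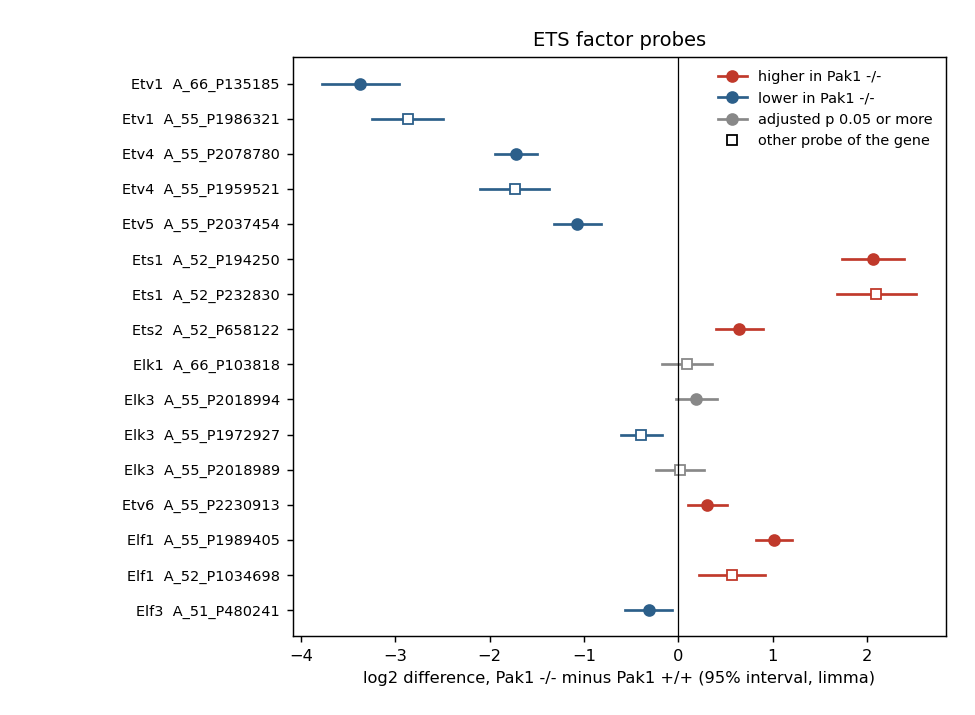
Log2 difference (Pak1 -/- minus Pak1 +/+) of the 16 ETS factor probes that were not saturated, with 95% intervals from limma. Filled circles are the probes that stand for their genes and open squares the other probes, red and blue mark probes higher and lower at an adjusted p under 0.05, and gray marks the rest. Both Etv1 and both Etv4 probes lie left of 0, both Ets1 and both Elf1 probes right of it, and the 3 Elk3 probes on either side.

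Counted by probe, 6 of the 17 were higher, 7 lower and 4 had no call, the saturated probe included, beside 51.9% of all probes called (23.3% higher and 28.6% lower). Probe intensities of different genes depend on the probe as well as on the transcript, so no order of levels between the members is given. In bulk cultures, fewer cells that express a gene and less of its RNA in each cell cannot be told apart.

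**Figure D3:**
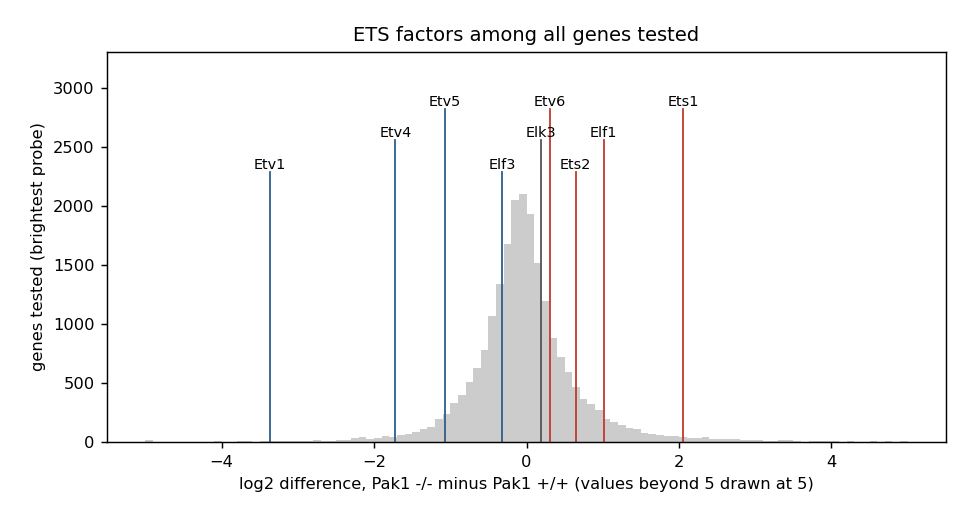
Histogram of the log2 difference (Pak1 -/- minus Pak1 +/+) of the 22014 genes tested, by brightest probe in bins of 0.1, with the 9 ETS factors measured below saturation drawn as lines of arbitrary height (red higher, blue lower, gray not past the threshold). Etv1 at -3.37, Ets1 at 2.06 and Etv4 at -1.72 lie in the thin tails, and Elf3, Elk3 and Etv6 within the bulk of genes.

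The other 16 genes of the ETS family were set beside the members. Of these, 10 could be tested, and 4 were higher, 0 lower and 6 without a call (40% called, median 0.13), beside the 51% of all genes. The higher ones were Elf2, a relative of Elf1 (0.79, adjusted p = 0.00168), the epithelial factor Ehf (0.67, 0.0149), and the repressors Erf (0.67, 0.00387) and Etv3 (0.55, 0.00319). Leaving out Pak1 -/- replicate 2 ended the call of Ehf (adjusted p = 0.0766). Erf, which ERK removes from the nucleus, read 13.90 and 14.03 against 13.24 and 13.35. The count of 0 lower genes in limma was not firm, being 1 at an unadjusted p under 0.05: Elf5, the factor of milk-producing alveolar cells, had a difference of -0.35 with an adjusted p of 0.0583, in 3 alternatives it passed the threshold, and without Pak1 -/- replicate 1 it stood at -0.21. Elk4 (0.26, adjusted p = 0.199), Elf4 (-0.21, 0.191), Fev (-0.14, 0.237), Gabpa (-0.055, 0.618) and Spdef (0.0054, 0.991) did not pass either. Without Pak1 +/+ replicate 1 Elk4 fell to 0.076, Elf4 stood at -0.091 and Fev at -0.21. Without Pak1 +/+ replicate 2 Elk4 passed the threshold (0.45), Elf4 stood at -0.33 and Fev at -0.059. Erg, Fli1, Etv2, Spi1, Spib and Spic, which mark endothelial and blood cells for the most part, were well above background on fewer than 2 arrays and were not tested.

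Genes that act on ETS factors or with them moved in both directions. Of 25 regulators and partners, 9 were higher, 7 lower and 9 without a call (64% called, beside 51% of all genes, median 0.092). These counts were not firm: both fell whichever sample was left out, in fits in which fewer of all probes were called as well. The largest increases were those of the serum response factor Srf (1.01, adjusted p = 0.00593), its coactivator Mrtfb (0.98, 0.0017) and Runx1, a DNA-binding partner of Ets1 (0.80, 0.00179). A dimmer Srf probe was higher by less (0.34, adjusted p = 0.0429). The largest decreases were those of the kinase Braf (-0.49, 0.00761), the ubiquitin ligase adaptor Det1 (-0.47, 0.00765) and the Raf scaffold Ksr1 (-0.46, 0.0104), the last lost without Pak1 +/+ replicate 1 (0.0555). Det1 works with Cop1 in the degradation of PEA3 proteins, and Cop1 itself differed by 0.11 by its brightest probe (adjusted p = 0.243) and by -0.26 by a dimmer one (adjusted p = 0.0397). Cic, a repressor of the PEA3 genes that is released by ERK, read 16.02 and 15.83 against 15.45 and 15.30 and was higher by 0.55 (SE 0.1, adjusted p = 0.0116), a call lost without Pak1 -/- replicate 1 (0.0505) or Pak1 +/+ replicate 2 (0.0515). Cop1 and Cic are named for their link to the PEA3 genes, after their values were seen.

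ERK feedback genes, whose transcription follows ERK output and which then damp the pathway, were called about as often as all genes. Of 8 tested, 4 were lower, 0 higher (1 at an unadjusted p under 0.05 in limma) and 4 without a call (50% called, beside 51% of all genes, median -0.40). Dusp6, a phosphatase of ERK, read 14.75 and 14.93 against 16.32 and 16.10, a difference of -1.37 (SE 0.11, adjusted p = 0.00113). Spry1 (-0.97, adjusted p = 0.0338), Spred2 (-0.78, 0.00211) and Spred1 (-0.48, 0.00747), inhibitors of the step from receptor to Raf, were lower too, and Spry1 lost its call without Pak1 +/+ replicate 1 (0.0734) or 2 (0.0913), with no filter (0.0585) and with processed signals quantile normalized (0.0556). Its difference was -0.59 without Pak1 -/- replicate 1 and -1.35 without Pak1 -/- replicate 2. The other 4 were Dusp5 (0.69, adjusted p = 0.0599), Spry2 (-0.32, 0.0791), Spred3 (0.28, 0.139) and Dusp4 (-0.11, 0.308). Spred3 and Dusp4 stood at 0.43 and -0.043 without Pak1 +/+ replicate 1, and at 0.13 and -0.17 without Pak1 +/+ replicate 2. Without Pak1 -/- replicate 2 Dusp5 passed the threshold (0.99, adjusted p = 0.0186), and without Pak1 -/- replicate 1 it stood at 0.38. Spry2 passed without Pak1 +/+ replicate 2 (-0.47, adjusted p = 0.0323) and stood at -0.18 without Pak1 +/+ replicate 1. Spry4 was not well above background on any array and was not tested.

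Early genes with serum response elements, where Elk1 and Elk3 act, were higher, lower or without a call. Of 10, 5 were higher, 2 lower and 3 without a call (70% called, beside 51% of all genes, median 0.38). These counts changed on leaving out a sample, in fits in which fewer of all probes were called as well. The higher ones were Egr3 (1.07, adjusted p = 0.0105), Fos (0.98, 0.0152), Mcl1 (0.64, 0.00386), Junb (0.44, 0.00926) and Ier2 (0.32, 0.0258). Egr3 was not well above background on Pak1 +/+ replicate 2, and its difference ran from 0.85 without Pak1 -/- replicate 1 to 2.09 with processed signals scaled to the 75th percentile. Fos, a partner of Jun in the AP-1 dimer, read 15.53 and 14.97 against 14.32 and 14.23. The lower ones were Fosb (-0.81, adjusted p = 0.0435) and Ier3 (-0.59, 0.00714). Fosb stood at -0.47 without Pak1 +/+ replicate 1 and at -1.16 without Pak1 +/+ replicate 2. It lost its call without Pak1 -/- replicate 1 or 2, Junb without Pak1 +/+ replicate 2, and Ier2 on leaving out any of the samples. With all samples, Fosb lost it with offset 0 (adjusted p = 0.0596), cyclic loess (0.0539), no filter (0.0732) and the authors' log2 table (0.0616). With processed signals quantile normalized or scaled to the 75th percentile, both Fosb (0.0683 and 0.0608) and Ier2 (0.0539 and 0.0788) lost it. Egr2 (0.63, adjusted p = 0.114), Nr4a1 (0.13, 0.614) and Egr1 (-0.098, 0.684) did not pass, Egr2 doing so without Pak1 -/- replicate 2 (0.96, adjusted p = 0.0465) and with the replicate number as a block (0.63, 0.0107) but standing at 0.29 without Pak1 -/- replicate 1. All samples were taken 15 min after EGF, so these values are of 1 time point of a fast response.

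Genes of invasion and growth that are often described as ETS targets split. Of 16 tested, 5 were higher, 9 lower and 2 without a call (87.5% called, beside 51% of all genes, median -0.40). Mmp14, a membrane-bound protease, showed the largest increase, at 14.59 and 14.78 against 7.62 and 6.24. The fitted difference was 7.76 (SE 0.46, adjusted p = 0.000511), but Pak1 +/+ replicate 2 was not well above background, and the value ran from 7.07 without that array to 9.65 with processed signals. The prostaglandin synthase Ptgs2 (3.41, adjusted p = 0.000586) and the filament protein Vim (1.45, 0.00333) followed. Of the genes measured on all 4 arrays, the secreted phosphoprotein Spp1 (-2.41, adjusted p = 0.00191) and the protease Mmp7 (-2.05, 0.000625), named after its value was seen, had the largest decreases. The collagenase Mmp13 (at least 4.54-fold, adjusted p = 0.000292) and the stromelysin Mmp3 (at least 3.30-fold, 0.000547) were lower too. Both were not well above background in the arrays labelled Pak1 -/-, so they have only bounds and no rank. Mmp9 was not well above background on any array. Of the metalloproteases tested, Mmp14 alone was higher and all the others were lower.

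**Figure D4:**
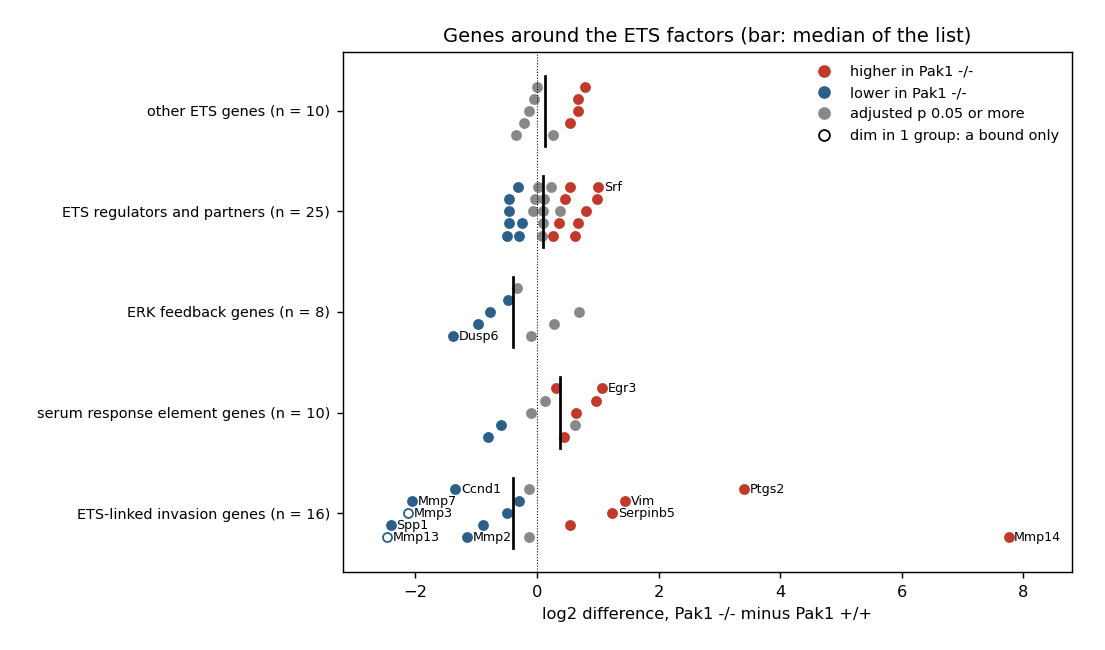
Log2 difference (Pak1 -/- minus Pak1 +/+) of each tested gene in 5 lists of genes around the ETS factors, 1 point per gene by its brightest probe, with black bars at the medians (0.13, 0.092, -0.40, 0.38 and -0.40 from top to bottom). Red and blue points passed an adjusted p of 0.05 in either direction, gray points did not, open points are bounds, and vertical scatter within a list carries no value. No ERK feedback gene passed the threshold to the right of 0, and Mmp14 lies far to the right of the other invasion genes.

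The genes whose profile over the 4 arrays was nearest to that of a member were sought among 19142 genes, by Euclidean distance of log2 values centered on each gene's mean. For Ets1 the nearest was Itprip at a distance of 0.058 log2, which read 14.90, 14.58, 12.67 and 12.71. Gm7975 (0.073), Shfl (0.08), Slfn10 (0.085) and Ncam1 (0.102) came next. Shfl is an interferon-induced antiviral factor, and Ncam1 a cell adhesion molecule. For Etv1 the nearest were LOC634585 (0.07), Prkar2b (0.118), Hlf (0.143), Klra15 (0.148) and Tesc (0.158). Prkar2b, a regulatory subunit of protein kinase A, read 10.68, 10.89, 14.24 and 14.06, and Hlf is a transcription factor of the PAR bZIP group. With 4 arrays in 2 groups, such a match reflects the size of the difference and the spread of 2 pairs, and Slfn10 and Klra15 belong to families of near-identical genes whose probes may not tell copies apart.

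ETS genes can themselves carry ETS sites, so the promoters of the members were read from RefSeq (GRCm38.p6, 250 bases before to 50 after the start). The table held 11 promoters of 8 members, Ets1 and Etv4 not among them. The site CCGGAAGT, searched on both strands, was in 0 of the 11 and in 3.89% of all 32851 promoters. The core GGAA, which is part of that site, was in 10 of the 11 and in 96% of all. Etv1 and Etv5, which were lower together, are printed for comparison as the 250 bases before the start, with GGAA in capitals: Etv1 holds 2 and Etv5 holds 0 in this window. Each gene had another promoter in the table, and the order was turned there: over the full windows and both strands, the promoters printed hold 5 (Etv1) and 0 (Etv5) cores, and the others 1 (Etv1) and 6 (Etv5).
Etv1, GRCm38.p6 chr12:38779832-38780081, + strand: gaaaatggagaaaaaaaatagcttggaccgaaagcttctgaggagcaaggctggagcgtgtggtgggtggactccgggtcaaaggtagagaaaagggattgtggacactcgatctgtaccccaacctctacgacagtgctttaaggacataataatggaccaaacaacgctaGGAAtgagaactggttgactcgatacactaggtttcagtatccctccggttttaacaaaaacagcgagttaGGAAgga
Etv5, GRCm38.p6 chr16:22439571-22439820, - strand: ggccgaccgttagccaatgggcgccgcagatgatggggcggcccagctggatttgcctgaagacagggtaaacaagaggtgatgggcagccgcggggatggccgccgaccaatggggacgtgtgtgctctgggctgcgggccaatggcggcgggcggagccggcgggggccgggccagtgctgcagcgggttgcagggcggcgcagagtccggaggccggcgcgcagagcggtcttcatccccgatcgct

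A match or its absence describes these letters only. Over the array as a whole, 958 tested genes had a promoter with CCGGAAGT, of which 236 were higher and 318 lower (57.8% called, median -0.085). The 11628 tested genes whose promoters lacked it gave 3063 higher and 3244 lower (54.2% called, median -0.033). These shares and medians were not tested against each other.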

How the data were processed

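Total RNA of 4 samples (2 Pak1 -/-, 2 Pak1 +/+) was hybridized to 1-color Agilent arrays. The deposited array files, written by Feature Extraction 9.5.3.1 per their headers, give unnormalized linear intensities of each spot beside other columns for flags, names and mm9 coordinates. The authors also deposited a log2 table of the same arrays (normexp, quantile), with values in 24008 of 39485 rows, used as an alternative (lowest r with the values here 0.9998). It gave values for 16 of the 17 ETS factor probes, all but the saturated 1.

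Intensities were background corrected with normexp (offset 50) in limma 3.58.1 (R 4.3.3) and quantile normalized. Control and outlier spots were left out, and spots of a probe were averaged. Probes well above background on at least 2 arrays (27229) were fitted with lmFit and eBayes, genotype as the only term (2 residual and 2.62 prior degrees of freedom), two-sided, with Benjamini-Hochberg adjustment over all of them. Exact permutation of 2 against 2 cannot go below p = 0.333. The offset and filter were set here. The number of arrays limits the precision. The script was tested on simulated data.

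A probe dim on both arrays of a group gives "at least N-fold", against the higher of its own value and the lowest well-measured value per array. Every probe of the 10 members is named. From other lists all genes are named where at most 10 were tested, otherwise the 3 largest changes past the threshold each way, and the 5 nearest profiles of the members with the largest difference in each direction. Members and lists were chosen with earlier results of these data known. No mm9 annotation was used here, so exon and UTR positions of probes are not given.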

Additional observations from a re-analysis of the deposited data

How the results depend on the processing

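The 16 unsaturated ETS factor probes were each refitted under 14 alternatives, which left 198 values with the sign and call they had, while 22 lost a call, 1 gained one and 3 changed sign. The changes of sign were in dim probes with no call: the second Elk1 probe (-0.025 without Pak1 -/- replicate 2, up to 0.20 without others) and the third Elk3 probe (-0.03 without Pak1 -/- replicate 2 and -0.085 without Pak1 +/+ replicate 1, up to 0.11). On leaving out a sample, fewer members were called, in fits in which fewer of all probes were called too. At a change of at least 2-fold, 2 were higher and 3 lower with all samples, 1 higher and 3 lower with either scaling to the 75th percentile (Elf1 at 0.98 and 0.97) or with probes of a gene averaged, and 2 higher and 2 lower under cyclic loess (Etv5 at -0.95), combinations added after seeing the data. The median of all 10 members, the saturated Elk1 probe included (0.096), was 0.06 to 0.13 without a sample, 0.30 under cyclic loess, and 0.14 with Elk1 by its second probe, a choice made after seeing the data. With a sample left out, the lone sample of its group is assumed to vary like the other group. All probes called numbered 14132, and 10307 to 12164 without a sample.

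Of 43 other genes named from the lists around the ETS factors, refitted by their brightest probes, those whose sign changed had no call: Gabpa (0.027 under cyclic loess, 0.009 down to -0.12 on leaving out a sample), Spdef (-0.30 without Pak1 -/- replicate 2, -0.43 without Pak1 +/+ replicate 1, up to 0.44), Egr1 (0.14 and 0.013 without the same samples, -0.33 without Pak1 -/- replicate 1, -0.34 with processed signals scaled to the 75th percentile) and Nr4a1 (-0.0029 with normexp values scaled to the 75th percentile, -0.015 with processed signals so scaled, -0.018 without Pak1 -/- replicate 1, -0.11 without Pak1 +/+ replicate 2, up to 0.38). Counts in lists on leaving out a sample were 3 to 5 higher and 0 to 1 lower for other ETS genes, 5 to 7 and 2 to 4 for regulators and partners, 0 to 1 and 3 to 4 for ERK feedback genes, 3 to 5 and 1 to 2 for serum response element genes, and 4 to 5 and 7 to 8 for invasion genes. With all samples, lower ETS genes were 1 with 75th percentile scaling of normexp values and with a filter on all 4 arrays, lower regulators 4 under cyclic loess, and higher ERK feedback genes 1 under cyclic loess, the filter on all 4 arrays and the replicate block. Lower serum response element genes were 1 with offset 0, processed signals under either scaling, cyclic loess, no filter and the authors' log2 table.

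Replicate numbers did not pair the samples (r = -0.028 of their differences across probes). With the number as a block, 13211 probes were called, and 4 members were higher and 3 lower, Elf3 being lost (adjusted p = 0.07). The cause of these changes was not tested. Saturation limits the brightest Elk1 probe.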
